A study of Mus musculus with 24 samples.

Results

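The endoplasmic reticulum (ER) unfolded protein response was followed through 10 genes, Hspa5, Hsp90b1, Dnajb9, Xbp1, Herpud1, Sdf2l1, Pdia4, Calr, Dnajc3 and Edem1, in mouse TM3 cells after a nanosecond pulsed electric field (nsPEF) or a sham exposure. The genes form a named list, chosen with earlier results of these data known. Every array probe whose RefSeq transcript maps to 1 of these symbols was used. This gave 17 of the 56605 probes on the array, for 10 of its 23787 named genes. Hspa5 and Xbp1 had 3 probes each, Dnajb9, Herpud1 and Edem1 had 2 each, and the other 5 genes had 1 each. All 17 probes passed the filter on dim signal, and 15 of them were well above background on all 24 arrays. Pdia4 and the second Edem1 probe each had 1 spot left out as an outlier of the image analysis, and were above background on the other 23 arrays.

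TM3 is a cell line derived from mouse Leydig cells, the testosterone-producing cells between the seminiferous tubules. Exposed cells (E) received 80 pulses of 60 ns at a field of 14 kV/cm over 180 s, and sham cells (S) received no pulses. RNA was taken at 0 h, 4 h and 24 h, which gave the groups S0, E0, S4, E4, S24 and E24 with 4 arrays each, labelled as biological replicates. All 6 groups shared the same handling up to exposure: washing in cold buffer, suspension, filtering and an electroporation cuvette. No culture without that handling was compared here. The handling near harvest differed with time: per the paper, 0 h cells came straight from prolonged preparation, while later cells had been in standard culture and were harvested quickly. Its part in the changes from 0 h was not tested. Each time point had a slide of its own with 8 arrays, and a change with time therefore cannot be told apart from a change of slide. Sham arrays filled one row of each slide and nsPEF arrays the other, and the same holds for treatment and place on the slide.

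As background, the ER folds secreted and membrane proteins, and the unfolded protein response raises its folding capacity when unfolded proteins gather there. Sensors in the ER membrane, Ire1 (gene Ern1), Perk (Eif2ak3) and Atf6, start it: Ire1 splices the Xbp1 mRNA, Perk slows translation and favours the Atf4 protein, and Atf6 is cut in the Golgi by the site proteases. Spliced Xbp1 and cut Atf6 then switch on chaperones, folding enzymes and the machinery that removes misfolded proteins. The 10 genes cover these roles. Hspa5 (BiP) and Hsp90b1 (Grp94) are the main ER members of the Hsp70 and Hsp90 families, Dnajb9, Dnajc3 and Sdf2l1 work with BiP, Pdia4 forms disulfide bonds, Calr is a calcium-binding lectin chaperone, Herpud1 and Edem1 serve degradation, and Xbp1 is the transcription factor.

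Many genes of the response are known to carry the ER stress response element (ERSE) before their start. The promoters of all 10 genes, 250 bases before to 50 after the start in RefSeq's GRCm38.p6, were searched on both strands for 3 patterns. For Edem1 the window (chr6:108828391-108828690, plus strand) lies inside the gene, which begins at base 108824045. The stretch before that first base was not searched. ERSE was written as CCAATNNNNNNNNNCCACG, ERSE-II as ATTGGNCCACG, and the core of the UPRE, a site of Xbp1 and Atf6, as TGACGTGG. ERSE was found before 4 of the 10 genes, Hspa5, Hsp90b1, Calr and Dnajc3, against 0.119% of the 32851 promoters in the table. ERSE-II was found before Herpud1, against 0.0365% of all promoters, and the UPRE core before none of the 10, against 0.676%. Each stretch below is printed 5′ to 3′ on the strand of its gene, with the match in capitals. Hspa5 is shown because it carries the match closest to the start among the ERSE genes, at bases -65 to -47 (chr2:34771840-34772089, plus strand).
Hspa5: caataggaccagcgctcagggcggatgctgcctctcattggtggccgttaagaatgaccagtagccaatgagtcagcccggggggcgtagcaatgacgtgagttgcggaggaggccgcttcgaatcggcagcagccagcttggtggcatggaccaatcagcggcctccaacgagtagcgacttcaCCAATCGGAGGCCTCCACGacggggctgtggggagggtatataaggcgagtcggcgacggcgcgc
The other matches are shown with 25 bases on each side. Hsp90b1 (chr10:86705508-86705681, minus strand) holds a pair of ERSE matches, at -212 to -194 and, in the opposite direction, at -107 to -89.
Hsp90b1: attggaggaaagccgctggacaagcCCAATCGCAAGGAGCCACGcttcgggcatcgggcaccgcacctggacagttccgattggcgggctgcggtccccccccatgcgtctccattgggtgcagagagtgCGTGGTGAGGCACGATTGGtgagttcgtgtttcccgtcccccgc
Calr (chr8:84847050-84847118, minus strand) holds 1 match in the opposite direction, at -162 to -144.
Calr: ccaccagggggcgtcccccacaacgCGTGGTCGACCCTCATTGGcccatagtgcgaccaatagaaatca
Dnajc3 (chr14:118937802-118937870, plus strand) holds 1 match at -105 to -87.
Dnajc3: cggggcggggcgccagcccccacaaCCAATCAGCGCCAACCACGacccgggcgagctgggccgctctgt
Herpud1 (chr8:94386352-94386412, plus strand) holds the ERSE-II match at -52 to -42.
Herpud1: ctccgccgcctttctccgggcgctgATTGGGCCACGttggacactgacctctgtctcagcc
Sdf2l1 (chr16:17132384-17132633, minus strand) is shown because its group means spanned the widest range of the 10 genes, and none of the 3 patterns stands in its window.
Sdf2l1: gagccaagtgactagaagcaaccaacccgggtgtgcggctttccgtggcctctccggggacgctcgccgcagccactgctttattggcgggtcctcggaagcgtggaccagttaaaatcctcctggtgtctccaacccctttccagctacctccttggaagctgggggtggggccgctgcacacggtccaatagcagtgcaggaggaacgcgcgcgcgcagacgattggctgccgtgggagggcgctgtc
A match describes these letters and does not show binding.

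Values are log2 signal minus the log2 75th percentile of the array, so 0 is the signal of a probe at that percentile and each unit is a factor of 2. A gene is described by its brightest probe unless another is named. "Called" means an adjusted p under 0.05 by limma, with Benjamini-Hochberg adjustment over all 37684 tested probes. Where groups are said to overlap or not, the share of all probes doing so was not counted. Such statements describe the arrays of single genes and are not a test. The 75th percentile ranged from 202 to 533 intensity units, with S4 replicate 4 highest, and no member count from the brightest probes moved beyond 1.5 times without that array. The share of probes well above background was 57.5% to 62.1% on the sham arrays and 51.2% to 57.2% on the nsPEF arrays; its part in the differences between nsPEF and sham was not tested. Of 8 Leydig markers on the array, Star, Cyp17a1, Nr5a1 and Gata4 were above background on all arrays, and Cyp11a1, Hsd3b1, Lhcgr and Hsd17b3, which serve steroid synthesis and the response to luteinizing hormone, on none. Genes used as Sertoli (Sox9, Amhr2, Wt1), macrophage (Cd68, Csf1r, Cd14), peritubular myoid (Acta2, Cnn1) and germ cell markers (Tnp1) were also above background on all arrays of this cell line, and Dhh on none. The other markers, Amh, Cldn11, Fshr, Adgre1, Ptprc, Mrc1, Myh11, Des, Ddx4, Dazl, Sycp3 and Prm1, were above background on 1 to 22 arrays. Summed over a list and in multiples of the 75th percentile, the Leydig markers ranged from 4.52 to 6.45 in S0 and 2.77 to 4.07 in S24, the Sertoli markers from 37.2 to 44.0 in S0 and 23.3 to 28.7 in S4, and the myoid markers from 28.8 to 36.3 in S0 and 46.3 to 58.4 in S4. These sums moved with time, and their part in the changes with time was not tested. Between treatments the called markers were Csf1r, lower at 0 h, Myh11, higher at 0 h and 24 h, and Ddx4, lower at 24 h after nsPEF.

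Of the 10 genes, 9 had a called change with time in sham and in nsPEF cells. Dnajc3 had one in nsPEF cells, and its sham change to 24 h just missed the threshold. Between nsPEF and sham 1 gene, Sdf2l1, had a called difference at a time point by its brightest probe. Averaged over both treatments, time changed the signal of 10 of 10 genes (adjusted p from 1.0e-14 for Sdf2l1 to 0.00128 for Dnajc3), where 80.2% of all tested probes were called, so the share alone does not set these genes apart. The nsPEF effect averaged over time was called for 0 of 10, with differences from -0.17 to 0.07; over all probes 4.39% were called higher and 4.44% lower. The interaction of treatment and time was called for 0 of 10 by limma, against 0.377% of all probes. Sdf2l1 came closest with an adjusted p of 0.0848. Unadjusted limma p-values under 0.05 were found for 2 of the 10 in the average over time and for 2 of the 10 in the interaction. The share of all probes at that unadjusted threshold was not counted.

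**Figure D1:**
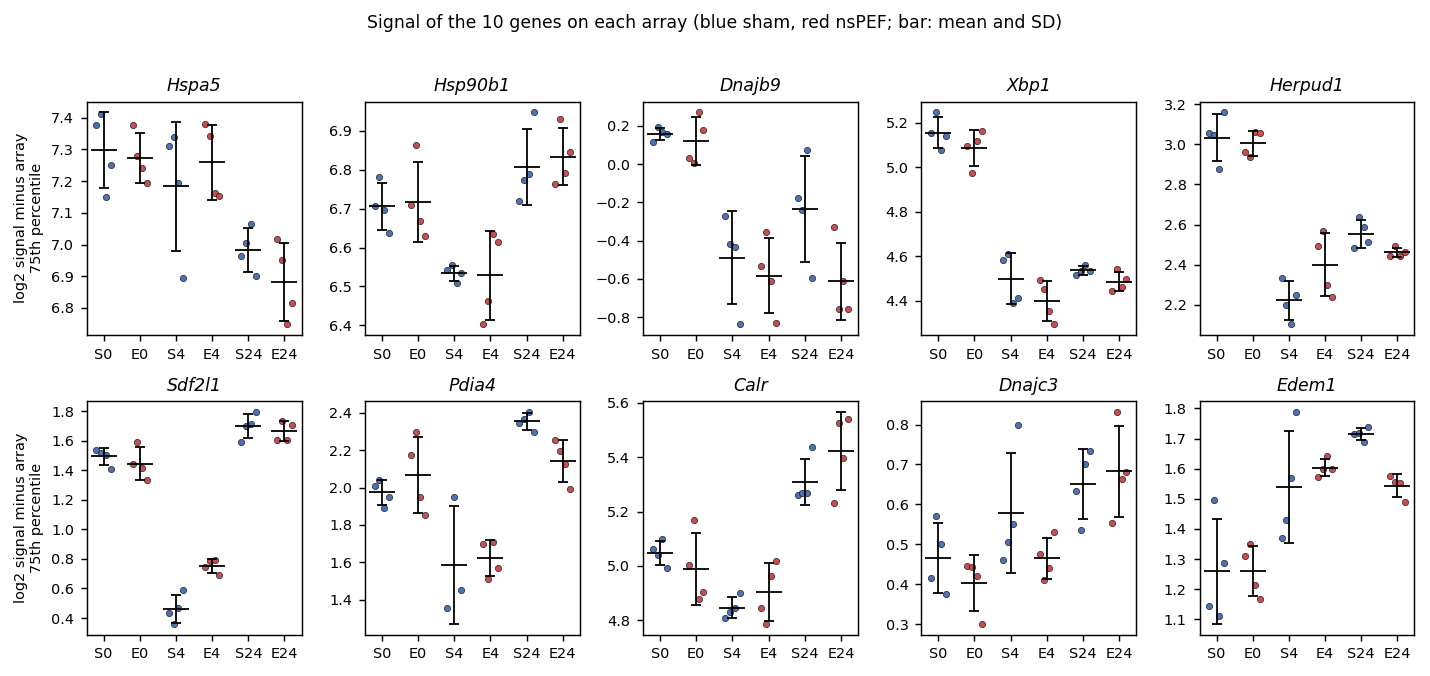
Signal of each gene by its brightest probe on every array, as log2 signal minus the array's 75th percentile (vertical axis, a separate scale for each gene), in sham (S, blue) and nsPEF cells (E, red) at 0, 4 and 24 h (horizontal axis). Points are arrays, and bars are the mean and SD of 4 arrays (3 for Pdia4 in S4). Xbp1 and Herpud1 were highest at 0 h in both treatments, and Sdf2l1 was lowest at 4 h.

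Sdf2l1, an ER-resident partner of BiP that helps keep folding proteins from clumping, was the member with a called nsPEF difference. In sham cells it measured 1.54, 1.52, 1.51 and 1.41 in S0, 0.44, 0.36, 0.47 and 0.59 in S4, and 1.59, 1.70, 1.71 and 1.79 in S24. After nsPEF its values were 1.44, 1.59, 1.41 and 1.33 in E0, 0.74, 0.78, 0.79 and 0.69 in E4, and 1.60, 1.73, 1.61 and 1.71 in E24. At 4 h all 4 nsPEF arrays lay above all 4 sham arrays, while at 0 h and 24 h the treatments overlapped. The 4 h difference was 0.29 (SE 0.06, 95% interval 0.16 to 0.42, adjusted p = 0.0152), a 1.22-fold higher signal after nsPEF, and the two-sided exact permutation test over these 8 arrays gave p = 0.0286, the smallest it allows. Any gene whose 8 arrays do not overlap gets that p, so it only restates the lack of overlap. The differences of the other times were -0.05 at 0 h (adjusted p = 0.88) and -0.04 at 24 h (adjusted p = 0.76). The 4 h call depends on the spread estimated from all 24 arrays: with the 8 arrays of that slide alone the difference was the same and the adjusted p was 0.106. It was also lost when replicate 1, 2 or 3 was left out of all groups at once, with differences of 0.28, 0.24 and 0.28 and adjusted p of 0.106, 0.0959 and 0.173, and it was kept when any single array was left out.

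Among the 10 genes, Sdf2l1 had the largest change in sham cells, where it fell by 1.03 from 0 h to 4 h (SE 0.06), 2.04-fold lower, and then rose by 1.24, 2.36-fold higher, from 4 h to 24 h. In nsPEF cells the fall to 4 h was to a higher point: the change was -0.69 and the rise to 24 h was 0.91, 1.88-fold higher. At 24 h the signal had passed its 0 h level, by 0.21 in sham and 0.22 in nsPEF cells (adjusted p = 0.0116 and 0.00682). The sham call was lost without replicate 3 or 4 of all groups (0.21 and 0.15, adjusted p = 0.0862 and 0.0699), and the nsPEF call without replicate 3 (0.23, adjusted p = 0.052). No arrays of neighbouring times overlapped in either treatment.

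At 4 h the other 9 genes had no called difference between nsPEF and sham by the brightest probe, with 1.71% of all probes higher and 1.60% lower. Differences of the 10 ranged from -0.11 for Dnajc3 to 0.29 for Sdf2l1. Herpud1, which helps bring misfolded proteins to the degradation complex, came next to Sdf2l1. It measured 2.34, 2.20, 2.10 and 2.25 in S4 and 2.50, 2.57, 2.30 and 2.24 in E4, with some overlap, a difference of 0.18 (95% interval 0.03 to 0.33, adjusted p = 0.167). Its second probe measured -0.06, -0.07, -0.10 and -0.04 in S4 and 0.27, 0.18, 0.10 and 0.15 in E4. These did not overlap, and the difference of 0.25 was called (SE 0.06, adjusted p = 0.0304). With the mean of both probes Herpud1 was called, with a difference of 0.21 and an adjusted p of 0.0273. For Hspa5 the difference was 0.08 (95% interval -0.11 to 0.26), so a change beyond 0.26 lay outside the interval, and for Hsp90b1 it was -0.01 (-0.14 to 0.13).

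Immediately after exposure 0 of 10 genes were called by limma, against 0.0716% of all probes called higher and 0.0557% lower. At an unadjusted p under 0.05 there were also 0 of 10. The differences ran from -0.07 for Xbp1 to 0.09 for Pdia4. The arrays of both treatments overlapped for all 10 genes, without a count over all probes to set this against. The widest 95% interval of the 10 was that of Dnajb9, from -0.32 to 0.25.

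At 24 h 0 of 10 genes were called by limma, against 2.64% of all probes called higher and 2.18% lower. At an unadjusted p under 0.05, where the share of all probes was not counted, there were 2 of 10. Dnajb9 (ERdj4), a BiP co-chaperone that also takes part in degradation, had the largest difference among the 10. It measured -0.18, -0.24, 0.08 and -0.60 in S24 and -0.33, -0.76, -0.61 and -0.76 in E24. The groups overlapped through 1 sham array, and the difference was -0.38 (95% interval -0.66 to -0.09, adjusted p = 0.11). Without S24 replicate 4 it was -0.50 (adjusted p = 0.036) and without E24 replicate 1 it was -0.47 (adjusted p = 0.0368), so single arrays decide this call.

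Pdia4, a protein disulfide isomerase, measured 2.34, 2.37, 2.40 and 2.30 in S24 and 2.25, 2.20, 2.13 and 1.99 in E24. The highest nsPEF array was below the lowest sham array, with a difference of -0.21 (95% interval -0.44 to 0.02) that was not called (adjusted p = 0.262). Edem1, a lectin that passes misfolded glycoproteins to degradation, measured 1.71, 1.72, 1.69 and 1.74 in S24 and 1.58, 1.56, 1.55 and 1.49 in E24. These did not overlap either, and the difference of -0.17 was not called (95% interval -0.34 to -0.00, adjusted p = 0.219). Calr had the highest positive difference at 24 h, 0.11 (95% interval -0.04 to 0.27).

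**Figure D2:**
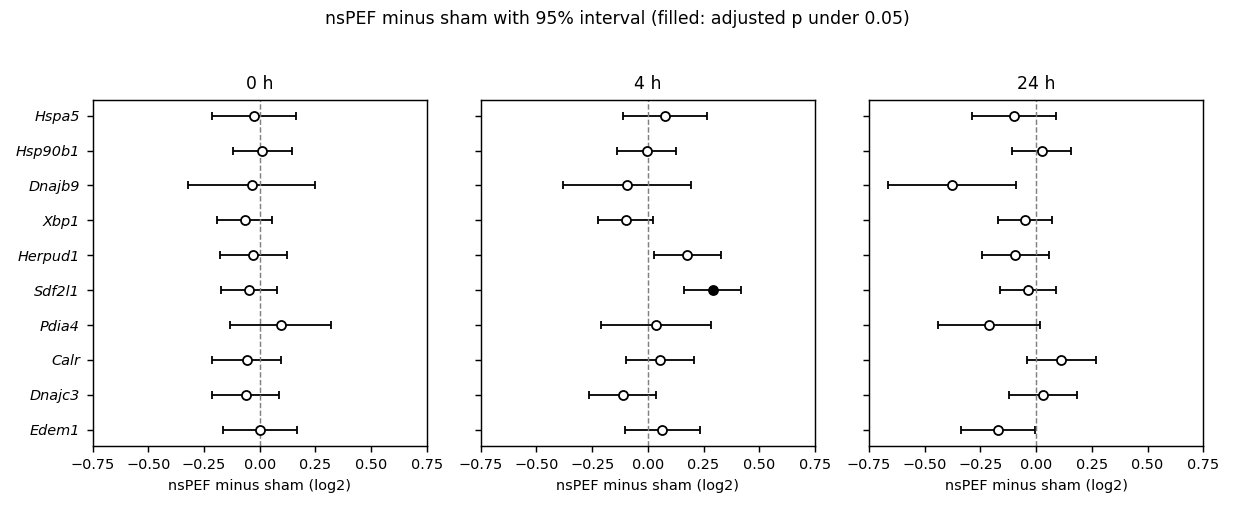
Differences between nsPEF and sham (horizontal axis, log2) for each gene (vertical axis) at 0, 4 and 24 h, with 95% intervals from the fit over 24 arrays. Filled points have an adjusted p under 0.05. Sdf2l1 at 4 h, at 0.29, is the filled point, and the interval of Dnajb9 at 24 h runs from -0.66 to -0.09.

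From 0 h to 4 h in sham cells 7 of 10 genes fell and 1 rose, where 29.7% of all probes fell and 29.4% rose. As the list was chosen with earlier results of these data known, such counts are a description and not a test. Hsp90b1, Dnajb9, Xbp1, Herpud1, Sdf2l1, Pdia4 and Calr fell, and Edem1 rose. The median change of the 10 was -0.29 and that of all tested probes was -0.01. In nsPEF cells 6 of 10 fell, the same genes without Calr, and Edem1 rose; of all probes 27.8% fell and 33.5% rose. There the median change was -0.32 for the 10 genes and 0.09 for all probes. Leaving out replicate 3 of all groups brought the sham count from 8 to 4 genes, and leaving out replicate 1 brought it to 5. A lower signal here cannot tell less RNA in each cell from fewer cells with the transcript.

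Xbp1, the transcription factor whose mRNA is spliced by Ire1, was high at 0 h and lower at both later times. It measured 5.15, 5.25, 5.08 and 5.14 in S0, 4.59, 4.61, 4.39 and 4.41 in S4, and 4.51, 4.53, 4.56 and 4.53 in S24. The nsPEF arrays gave 5.09, 4.97, 5.12 and 5.16 in E0, 4.50, 4.45, 4.36 and 4.29 in E4, and 4.44, 4.54, 4.46 and 4.50 in E24. No array at 0 h overlapped with any later array. The fall by 0.66 in sham cells to 4 h (SE 0.06, adjusted p = 5.3e-09) left a signal 1.58-fold lower, and the fall by 0.69 in nsPEF cells left it 1.61-fold lower. Between 4 h and 24 h Xbp1 had differences of 0.04 in sham and 0.09 in nsPEF cells, and neither was called. With quantile normalization they were 0.27 and 0.27 and both were called (adjusted p = 4.8e-05 and 3.8e-05). The other pair of Xbp1 probes fell likewise to 4 h, by 0.53 and 0.64 in sham and by 0.66 and 0.66 in nsPEF cells. The files do not say which probe, if any, tells spliced from unspliced Xbp1, and these values do not separate the forms.

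Herpud1 measured 3.06, 3.04, 2.87 and 3.16 in S0 and 2.48, 2.64, 2.59 and 2.51 in S24, on either side of its 4 h values above. It measured 2.96, 2.94, 3.06 and 3.06 in E0 and 2.44, 2.49, 2.44 and 2.46 in E24. It fell by 0.81 to 4 h in sham cells, 1.76-fold lower, and by 0.61 in nsPEF cells, 1.52-fold lower. It then rose by 0.33 to 24 h in sham cells (adjusted p = 0.00049), and in nsPEF cells the difference was 0.06 and was not called (0.17 with quantile normalization, adjusted p = 0.028). Whether the rise differed between treatments is part of the interaction test, which gave an adjusted p of 0.275 for this probe.

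Dnajb9 fell by 0.65 to 4 h in sham cells, from 0.11, 0.19, 0.17 and 0.16 in S0 to -0.27, -0.42, -0.43 and -0.84 in S4. In nsPEF cells it fell by 0.71, from 0.03, 0.00, 0.27 and 0.18 in E0 to -0.53, -0.36, -0.61 and -0.83 in E4. At 24 h it was still below 0 h, by 0.39 in sham and 0.73 in nsPEF cells. The sham change at 24 h passed the threshold narrowly (adjusted p = 0.0298), and without S24 replicate 4 it was -0.27 (adjusted p = 0.123). It was also lost without S0 replicate 2, 3 or 4 or S24 replicate 2, with adjusted p from 0.0534 to 0.0611. The second, dimmer probe fell by 0.58 to 4 h and by 0.75 to 24 h in sham cells, and in nsPEF cells it measured -0.34 at 4 h (adjusted p = 0.0504) and fell by 0.89 at 24 h. Between 4 h and 24 h in nsPEF cells the probes differed, with -0.03 by the brightest (not called) and a fall by 0.56 by the second (adjusted p = 0.00266).

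Hspa5, the chaperone that also holds the sensors inactive, is the usual marker of the response. It measured 7.38, 7.41, 7.15 and 7.25 in S0, 7.31, 7.34, 7.19 and 6.89 in S4, and 6.96, 7.00, 7.06 and 6.90 in S24. In nsPEF cells it measured 7.38, 7.28, 7.24 and 7.19 in E0, 7.38, 7.34, 7.16 and 7.15 in E4, and 7.02, 6.95, 6.75 and 6.81 in E24. Its 0 h and 4 h arrays overlapped in both treatments, and all 24 h arrays lay below the 0 h arrays of their treatment. The change to 4 h was -0.11 in sham and -0.01 in nsPEF cells, and neither was called. To 24 h it fell by 0.31 in sham cells, 1.24-fold lower, and by 0.39 in nsPEF cells, 1.31-fold lower. The sham call depends on the processing: it was lost with quantile normalization (-0.12, adjusted p = 0.19), with values centred by row of the array and signal (-0.16, adjusted p = 0.0926), and without replicate 1 or 2 of all groups (-0.28 each, adjusted p = 0.0655 and 0.0745). Scaling to the spike-in RNAs, described below, turned the sham fall into a called rise (0.39, adjusted p = 0.00374). From 4 h to 24 h the sham change of -0.20 was not called (adjusted p = 0.0638), but it was with the replicate number as a block (adjusted p = 0.0135) and without S4 replicate 4 (-0.30, adjusted p = 0.00347), and both dimmer probes fell by 0.21. Both dimmer probes fell from 0 h to 24 h as well, by 0.27 and 0.21 in sham and by 0.31 and 0.41 in nsPEF cells.

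Hsp90b1, the other abundant chaperone, measured 6.71, 6.78, 6.70 and 6.64 in S0, 6.54, 6.55, 6.51 and 6.53 in S4, and 6.72, 6.77, 6.79 and 6.95 in S24. The nsPEF arrays gave 6.71, 6.86, 6.67 and 6.63 in E0, 6.40, 6.46, 6.64 and 6.61 in E4, and 6.76, 6.93, 6.79 and 6.85 in E24. The sham arrays of 0 h and 4 h did not overlap, and those of nsPEF cells did. The dip at 4 h was small, -0.17 in sham (adjusted p = 0.0254) and -0.19 in nsPEF cells (adjusted p = 0.0142), and single arrays decided it. Without S0 replicate 2 or S4 replicate 3 the sham change was -0.15 (adjusted p = 0.0784) and -0.16 (adjusted p = 0.0557), and without E0 replicate 2 or E4 replicate 1 the nsPEF change was -0.14 (adjusted p = 0.0643) and -0.15 (adjusted p = 0.0607). With quantile normalization the sham dip was -0.14 and was not called (adjusted p = 0.0953). From 4 h to 24 h Hsp90b1 rose by 0.27 in sham and 0.30 in nsPEF cells, and at 24 h it stood 0.10 and 0.12 above 0 h, neither called. Those differences from 0 h depend on the processing. With quantile normalization they were 0.28 and 0.18 and both were called (adjusted p = 0.00425 and 0.0457). With values centred by row of the array and signal they were 0.26 and 0.18, also called (adjusted p = 0.0019 and 0.0182). Without E0 replicate 2 the nsPEF rise to 24 h was called as well (0.16, adjusted p = 0.0455).

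Calr measured 5.06, 5.04, 5.10 and 4.99 in S0, 4.81, 4.83, 4.85 and 4.90 in S4, and 5.26, 5.27, 5.27 and 5.44 in S24. After nsPEF its values were 5.01, 5.17, 4.88 and 4.90 in E0, 4.84, 4.79, 4.96 and 5.02 in E4, and 5.23, 5.52, 5.40 and 5.54 in E24. The sham arrays of the 3 times did not overlap, while E0 and E4 did. It fell by 0.20 to 4 h in sham cells (adjusted p = 0.0236), a call lost without S0 replicate 3 (-0.18, adjusted p = 0.0596) or S4 replicate 1 (-0.19, adjusted p = 0.0543), and in nsPEF cells the change was -0.09 and was not called, though with quantile normalization it was (-0.26, adjusted p = 0.00407). At 24 h it had risen above 0 h by 0.26 in sham cells, 1.20-fold, and by 0.43 in nsPEF cells, 1.35-fold. Without replicate 4 of all groups the sham rise was 0.20 and was not called (adjusted p = 0.0699).

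Pdia4 measured 2.01, 2.04, 1.89 and 1.95 in S0, and 1.36, 1.95 and 1.45 on the 3 arrays of S4 that kept its spot. The nsPEF arrays gave 2.17, 2.30, 1.95 and 1.86 in E0 and 1.70, 1.51, 1.71 and 1.57 in E4. The 4 h and 0 h arrays overlapped in sham cells and not in nsPEF cells. It fell by 0.39 to 4 h in sham (adjusted p = 0.00795) and by 0.45 in nsPEF cells, then rose by 0.77 and 0.52 to 24 h. The sham fall rests on the left-out spot: with marked spots kept the change was -0.11 (adjusted p = 0.629), and without S4 replicate 1 it was -0.27 (adjusted p = 0.0681). At 24 h Pdia4 stood 0.38 above 0 h in sham cells (adjusted p = 0.0101, and 0.111 with marked spots kept) and 0.07 above it in nsPEF cells, which was not called.

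Edem1 rose where most of the 10 fell. It measured 1.14, 1.50, 1.11 and 1.29 in S0 and 1.37, 1.43, 1.57 and 1.79 in S4, with overlap, and 1.31, 1.35, 1.21 and 1.17 in E0 and 1.57, 1.60, 1.64 and 1.60 in E4, without overlap. It rose by 0.28 to 4 h in sham and by 0.34 in nsPEF cells, and stood 0.46 and 0.28 above 0 h at 24 h. From 4 h to 24 h in sham cells its change of 0.18 was not called (adjusted p = 0.0688), and it was without S4 replicate 4 (0.26, adjusted p = 0.00485). Its second probe did not follow in nsPEF cells, where it measured -0.09 at 4 h and 0.06 at 24 h, neither called. Between treatments at 4 h that probe was lower after nsPEF on all arrays (-0.31, adjusted p = 0.064), against 0.06 for the first probe, so the Edem1 probes disagree in direction. By the mean of both probes the nsPEF changes from 0 h were 0.13 at 4 h and 0.17 at 24 h and were not called (adjusted p = 0.28 and 0.165).

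Dnajc3 (p58IPK), a BiP co-chaperone that restrains Perk, had the weakest test for time of the 10. It measured 0.42, 0.57, 0.50 and 0.38 in S0, 0.46, 0.51, 0.55 and 0.80 in S4, and 0.63, 0.54, 0.70 and 0.73 in S24. In nsPEF cells it measured 0.45, 0.44, 0.42 and 0.30 in E0, 0.48, 0.41, 0.44 and 0.53 in E4, and 0.55, 0.83, 0.66 and 0.68 in E24. All E24 arrays lay above all E0 and E4 arrays, and the sham groups overlapped. The rise to 24 h was 0.28 in nsPEF cells (adjusted p = 0.00418), and in sham cells the change of 0.19 just missed the threshold (adjusted p = 0.0517). That sham change passed it when any 1 of 6 arrays was left out, among them S4 replicate 4 (0.19, adjusted p = 0.0216). The same change was called with quantile normalization (0.20, adjusted p = 0.0408) and with the deposited log2 values (0.19, adjusted p = 0.0437). A plain two-way analysis of variance called it too (0.19, adjusted p = 0.0457). In nsPEF cells Dnajc3 rose by 0.22 from 4 h to 24 h, a call lost without E24 replicate 2 (0.17, adjusted p = 0.0626).

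Over the whole day, 24 h against 0 h, 4 of 10 genes rose and 4 fell in each treatment. In sham cells Sdf2l1, Pdia4, Calr and Edem1 rose and Hspa5, Dnajb9, Xbp1 and Herpud1 fell, where 16.9% of all probes rose and 19.7% fell. In nsPEF cells Sdf2l1, Calr, Dnajc3 and Edem1 rose, where 23.9% of all probes did, and the same 4 genes fell, where 18.3% did. The median change of the 10 was 0.14 in sham and 0.09 in nsPEF cells, and that of all probes -0.00 and 0.06. Without replicate 4 of all groups 5 genes were called in sham cells at 24 h in place of 8. From 4 h to 24 h 5 genes rose and 0 fell in sham cells, against 27.8% and 29.9% of all probes, and 5 rose and 1, Hspa5, fell in nsPEF cells, against 27.5% and 29.0%. Hsp90b1, Sdf2l1, Pdia4 and Calr rose in both treatments, with Herpud1 in sham and Dnajc3 in nsPEF cells. The comparisons with 0 h and with 4 h share arrays, so these counts are not independent of each other. With scaling to the spike-in RNAs in place of the 75th percentile, the median of all probes shifted by 0.70 in sham and 0.54 in nsPEF cells from 0 h to 24 h, and by 0.67 and 0.38 from 4 h to 24 h. Measured against that median, all 43 called changes of the 10 genes kept their direction. Both scalings subtract a single value from each array, so this agreement follows from the scaling and is no separate test. Without reference to that median the differences of 24 h against 0 h turned positive for Hspa5, at 0.39 in sham and 0.09 in nsPEF cells, and in sham cells for Herpud1 (0.23), Dnajb9 (0.31) and Xbp1 (0.09). Of these, the sham rises of Hspa5 and Herpud1 were called (adjusted p = 0.00374 and 0.0375). The falls to 24 h given here are falls relative to the other transcripts.

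**Figure D3:**
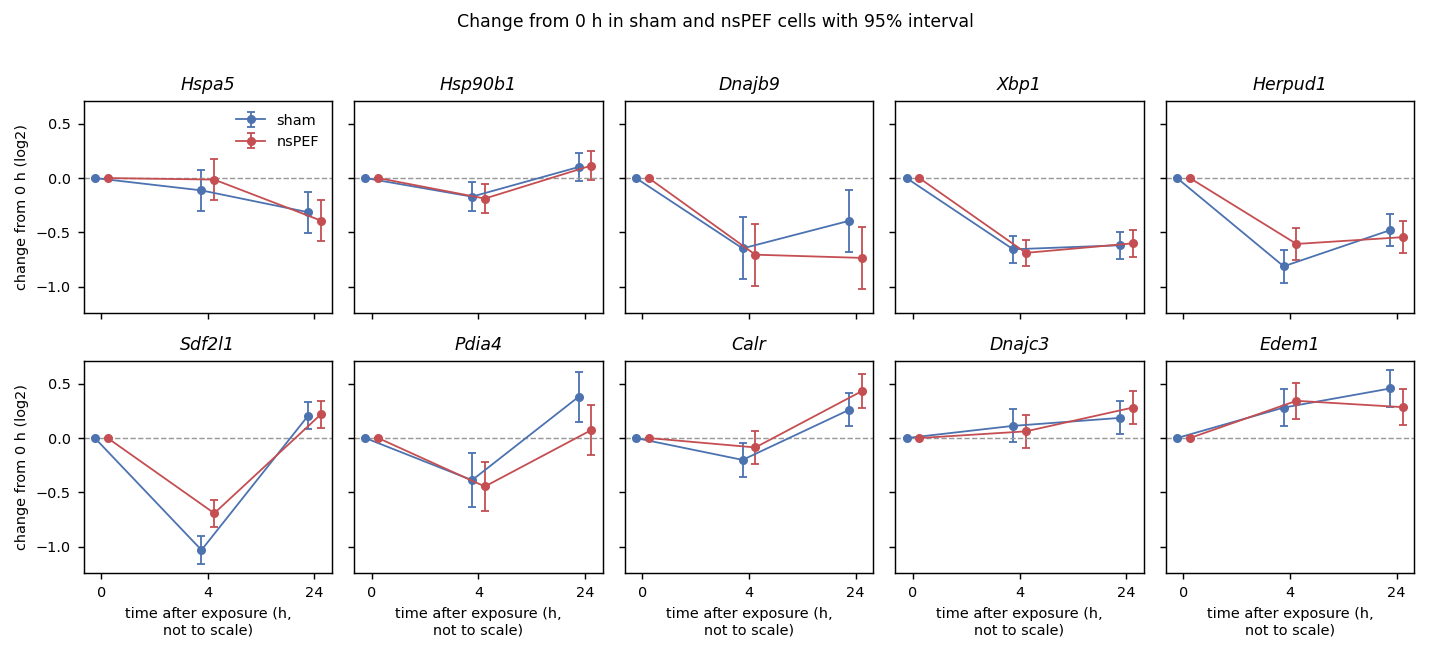
Change of each gene from 0 h (vertical axis, log2, the same scale for all genes) at 4 h and 24 h after exposure (horizontal axis, hours, not to scale) in sham (blue) and nsPEF cells (red), with 95% intervals. Sdf2l1 dips by 1.03 in sham and 0.69 in nsPEF cells at 4 h and returns by 24 h, while Xbp1, Herpud1 and Dnajb9 stay below 0 h.

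The 4 genes with an ERSE match before their start were those with the smallest changes to 4 h. Their changes in sham cells were 0.11 to 0.20 in size, against 0.28 to 1.03 for the other 6 genes, and in nsPEF cells 0.01 to 0.19 against 0.34 to 0.71. This is a description of 10 genes grouped after their values were known, and at 24 h the ranges overlapped (0.10 to 0.31 against 0.21 to 0.62 in sham cells). Among the 17 other ER chaperones with a promoter in the table, Canx, Creld2, Ero1b and Pdia6 carry the match. Of these, Canx, Creld2 and Ero1b rose to 4 h in sham cells, by 0.15, 0.17 and 0.38, and Pdia6 fell by 0.37. Of all 20 other ER chaperones tested, 7 rose and 6 fell in that comparison. In the list of ER-associated degradation, Syvn1 and Derl3 carry the match. Syvn1 fell to 4 h in sham cells, and Derl3 was not tested.

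**Figure D4:**
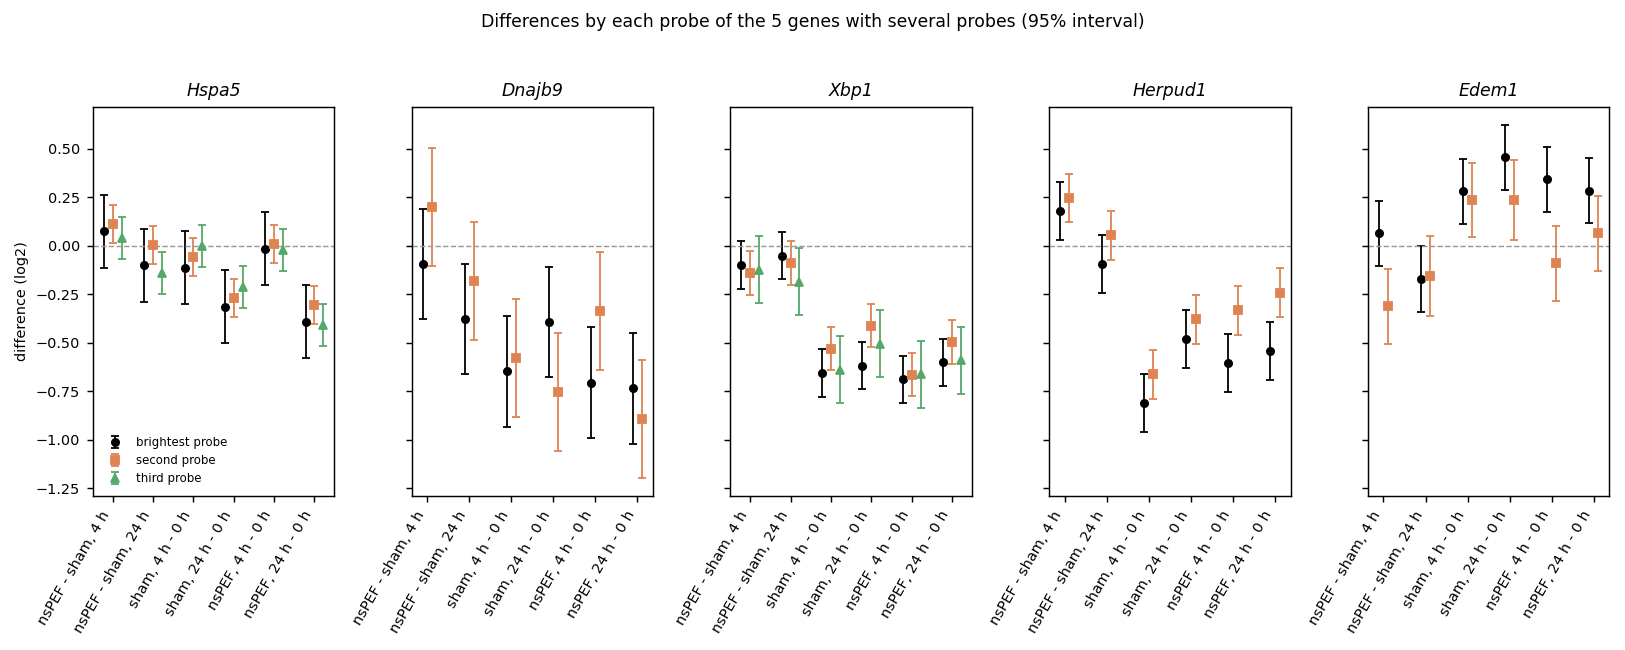
Differences (vertical axis, log2, with 95% intervals) by each probe of the 5 genes with several probes, for 6 comparisons (horizontal axis). The Xbp1 probes lie between -0.66 and -0.53 in sham cells at 4 h against 0 h, and the Edem1 probes part at 4 h, at 0.06 and -0.31 for nsPEF against sham.

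Ordered by mean level, the 6 groups of a gene were mostly not separated from their neighbours. For Hspa5 the order was S0, E0, E4, S4, S24, E24, with means from 7.30 to 6.88, and none of the 5 steps was called. For Xbp1 it was S0, E0, S24, S4, E24, E4, from 5.15 to 4.40, with a called step after E0 alone. Herpud1 (S0, E0, S24, E24, E4, S4, from 3.03 to 2.22) and Dnajb9 (S0, E0, S24, S4, E4, E24, from 0.16 to -0.61) had the same single called step, after E0.

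Sdf2l1 had 3 called steps. Its order was S24, E24, S0, E0, E4, S4, from 1.70 to 0.46, and the steps after E24, E0 and E4 were called. Hsp90b1 (E24, S24, E0, S0, S4, E4, from 6.83 to 6.53) and Pdia4 (S24, E24, E0, S0, E4, S4, from 2.35 to 1.59) each had 1, after S0. Calr (E24, S24, S0, E0, E4, S4, from 5.42 to 4.85) had 1 after S24, and Edem1 (S24, E4, E24, S4, E0, S0, from 1.72 to 1.26) had 1 after S4. Dnajc3 (E24, S24, S4, S0, E4, E0, from 0.68 to 0.40) had none.

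The genes whose pattern over the 6 group means was most like that of the brightest Hspa5 probe were not other members. Likeness was the root mean square difference of the group means, each centred on its own mean, over probes with a symbol. The means were not scaled, so the size of the changes counts in the rank as well as their shape. The 10 nearest genes were Eef1a1, Dbi, Hnrnpa1, Vxn, Tapbp, Gm2a, Copb2, Eef1b2, Impdh2 and Mbp, with differences from 0.029 to 0.039 where the Hspa5 means themselves spanned 0.415. The other Hspa5 probes ranked 6 and 29. The nearest other member was Hsp90b1 at 0.253, rank 7910. The farthest was Sdf2l1 at 0.562, rank 19346, whose means spanned 1.24.

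The counts of the 6 lists that follow are read against the shares of all probes given above for the same comparisons: 29.4% higher and 29.7% lower to 4 h and 16.9% and 19.7% to 24 h in sham cells, 33.5% and 27.8%, then 23.9% and 18.3%, in nsPEF cells. Between nsPEF and sham those shares were 0.0716% higher and 0.0557% lower at 0 h, and 1.71% and 1.6% at 4 h. They were 2.64% and 2.18% at 24 h, and 4.39% and 4.44% averaged over time. The genes named for the average over time were chosen after their values were seen.

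The sensors moved in opposite directions with time. Of 6 sensors and site proteases, 3 rose and 2 fell from 0 h to 4 h in sham cells, and 3 rose and 1 fell to 24 h; in nsPEF cells the counts were 3 and 2, then 2 and 2. Ern1, which encodes Ire1, rose by 1.99 to 4 h in sham cells, from -0.87 ± 0.04 (SD, n = 4) to 1.12 ± 0.20, and stood 0.34 above 0 h at 24 h. Atf6 rose by 0.88 to 4 h, and Atf6b, its relative, by 0.61 to 24 h. Eif2ak3, which encodes Perk, fell by 1.07 to 4 h, and Mbtps1, the site 1 protease, fell by 0.63 to 4 h and 0.29 to 24 h. Between nsPEF and sham 0 of 6 were called by limma at 0, 4 and 24 h. Averaged over time 1 was called lower, Mbtps2, the site 2 protease (-0.19), where 4.44% of all probes were lower.

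The Atf4 and Chop arm, downstream of Perk, held the called nsPEF differences of the other lists at 4 h. Of its 9 genes 3 were higher after nsPEF and 0 lower at 4 h, against 1.71% and 1.6% of all probes. At 0 h and 24 h 0 were called. Averaged over time 3 were higher, against 4.39% of all probes: Trib3 by 0.24, Nupr1 by 0.14 and Ppp1r15a by 0.11. Chac1, a glutathione-degrading enzyme, was higher by 0.43 (3.75 ± 0.08 in S4 and 4.17 ± 0.14 in E4, SD, n = 4 each, adjusted p = 0.00248). Trib3, a pseudokinase induced by Chop, was higher by 0.41 (adjusted p = 0.0145) and Nupr1, a stress-induced chromatin protein, by 0.32 (adjusted p = 0.017). With time 7 of 9 fell to 4 h and 9 of 9 to 24 h in sham cells, and 4 of 9 and 9 of 9 in nsPEF cells, where 1 rose at 4 h. Atf3 fell by 3.18 and 4.48 and Ppp1r15a, which restores translation, by 2.28 and 2.36 in sham cells to 4 h and 24 h.

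The other ER chaperones and folding enzymes were called in shares not far from those of all probes at 4 h. Of 20 genes 7 rose and 6 fell to 4 h, and 4 rose and 5 fell to 24 h in sham cells; in nsPEF cells the counts were 8 and 6, then 5 and 7. Ero1a, the oxidase that recharges disulfide isomerases, rose by 0.85 and 0.80, and Hyou1, a large Hsp70 relative, by 0.78 and 0.50. Fkbp14, a proline isomerase, fell by 2.17 and 0.70, and Sil1, which swaps the nucleotide of BiP, fell by 1.08 and 0.49. At 24 h Fkbp14 was lower after nsPEF by 0.34 (1.86 ± 0.07 in S24 and 1.52 ± 0.16 in E24, SD, n = 4 each, adjusted p = 0.0444), the single call of this list between treatments at the 3 times.

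Of 17 genes of ER-associated degradation 6 rose and 5 fell to 4 h, and 1 rose and 5 fell to 24 h in sham cells; in nsPEF cells the counts were 7 and 6, then 3 and 6. Ubxn4 and Edem3 rose to 4 h, by 0.63 and 0.60, and Rnf5 and Edem2 fell, by 1.07 and 0.70. At 24 h Edem3 stood 0.41 higher, and Selenos and Erlec1 had fallen by 0.51 and 0.39. Derl3 was not above background on any array and was not tested. Among 22 genes of translocation and transport 9 rose and 1 fell to 4 h, and 0 rose and 10 fell to 24 h in sham cells; in nsPEF cells the counts were 9 and 2, then 1 and 10. Sec11c, of the signal peptidase, and Srprb, of the signal recognition particle receptor, rose by 0.95 and 0.82 to 4 h, and Kdelr1 fell by 0.26. Sec61b, of the translocon, and Sec24d, of the vesicle coat, fell by 0.35 and 0.34 to 24 h. Neither list held a call between nsPEF and sham at 0, 4 or 24 h. Averaged over time, where 4.44% of all probes were lower, Edem3 and Erlec1 of the degradation list were lower (-0.15 and -0.14). Ssr4 of the translocon-associated complex was lower too (-0.13), 1 of 22 genes and near that share.

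Among 11 heat shock genes of the cytosol 5 rose and 0 fell to 4 h, and 2 rose and 2 fell to 24 h in sham cells; in nsPEF cells the counts were 3 and 1, then 3 and 2. Hsph1 rose by 1.29 and 0.58, and Chordc1 by 0.56 to 24 h, with 1 S0 array left out. Bag3 and Dnajb1 fell by 0.39 and 0.22 to 24 h. Hspb1 was not well above background on any S0 array and was above it on all 4 arrays of S4. Its limma difference of 2.14 (SE 0.73, adjusted p = 0.0166) rests on those dim S0 signals. As a bound that was not tested, S4 was at least 1.98-fold higher. This sets the S4 mean against the higher of the probe's own signal and the lowest signal above background on each S0 array. Hspa1a was above background on 1 array and was not tested. Of these heat shock genes 0 were called by limma between nsPEF and sham at any of the 3 times.

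The median changes of the lists in sham cells at 4 h were 0.20 for the sensors, -0.46 for the Atf4 and Chop arm, 0.08 for the other chaperones, 0.07 for degradation, 0.14 for translocation and transport and 0.29 for the heat shock genes, beside -0.29 for the 10 genes and -0.01 for all probes. At 24 h they were, in the same order, 0.18, -0.77, -0.07, -0.08, -0.09 and -0.16. In sham cells the Atf4 and Chop arm was lower than the 10 genes at both times by its median. In nsPEF cells its median was -0.01 at 4 h, above the -0.32 of the 10 genes, and -0.63 at 24 h, below their 0.09. These medians describe the lists and were not tested against each other.

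**Figure D5:**
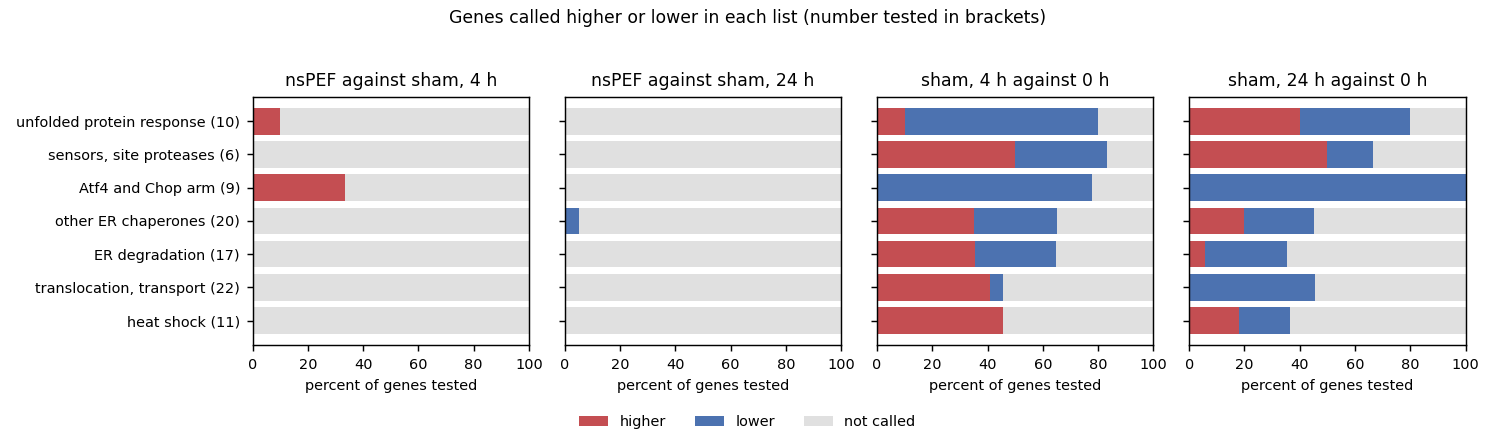
Share of the tested genes of each list (vertical axis, number tested in brackets) called higher (red), lower (blue) or not called (grey), in percent (horizontal axis), for nsPEF against sham at 4 h and 24 h and for sham cells at 4 h and 24 h against 0 h. The coloured bars are short between treatments, with 3 of 9 genes of the Atf4 and Chop arm at 4 h as the longest, and long between times.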

How the data were processed

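RNA of 24 samples was hybridised by the authors to 1-colour Agilent mouse arrays, and the images were read with Agilent Feature Extraction 12.0 per the submitters' processing notes. The deposited scanner files hold the processed signal of each spot, a background-subtracted and detrended intensity; the series table deposited by the authors holds log2 values, used as an alternative. Control spots and spots marked as outliers were left out, spots of a probe were averaged, log2 was taken, and the 75th percentile of each array was subtracted. Probes above background on at least 2 of 4 arrays of any group (37684) were fitted over 24 arrays with limma 3.58.1 (R 4.3.3), with 1 mean for each group and Benjamini-Hochberg adjustment at 0.05; the scripts were tested on simulated data. A plain analysis of variance with treatment, time and their interaction, the test in the authors' methods, was run as an alternative. Gene names and promoters came from RefSeq tables (GRCm38.p6). The members and the lists were chosen with earlier results of these data known. From each other list the text names, among called genes, the 2 strongest rises and the 2 strongest falls in sham cells at 4 h and at 24 h against 0 h and up to 3 with the largest nsPEF difference, with the 10 profiles nearest to Hspa5 and all markers. Array signal gives no read depth; the number of arrays limits the precision. No spot of these arrays was saturated. Insl3 was not matched to a probe and is not analysed here. The study's text says that the tests of a biological replicate were run on 1 cell suspension, so equal replicate numbers may share a suspension, though the labels do not state it. In the data, deviations of same-numbered sham and nsPEF arrays from their group means correlated between -0.05 and 0.10, and 7 of 12 arrays, all 4 at 4 h among them, correlated best with their own number. A fit with the number as a block was an alternative.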

Additional observations from a re-analysis of the deposited data

Results flagged for a closer look

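Calr in S24 replicate 4 measured 5.44, while the other 3 arrays of the group lay between 5.26 and 5.27. Of 59 groups of 4 arrays tested over the 10 genes this was the single one flagged, and chance flags about 1 in 20. Without replicate 4 of all groups the rise of Calr from 0 h to 24 h in sham cells was 0.20 and was no longer called (adjusted p = 0.0699). Among the genes of the other lists, the nsPEF difference of Chac1 differed between the 3 times by the interaction test (adjusted p = 0.017), with differences of -0.13 at 0 h, 0.43 at 4 h and 0.03 at 24 h.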

How the results depend on the processing

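Of the differences of single genes under other processing, 1346 kept direction and side of the threshold, 55 newly passed it, 21 no longer passed it and 8 reversed; with 1 array left out the numbers were 2374, 13, 13 and 0, and with 1 replicate number left out 369, 3, 28 and 0. The 8 reversals came with spike-in scaling, which moves the median of all probes as given above and by 0.13 at 0 h and 0.19 at 4 h between treatments and 0.17 from 0 h to 4 h in nsPEF cells: 24 h against 0 h in sham cells for Dnajb9 (0.31), Herpud1 (0.23), Hspa5 (0.39) and Xbp1 (0.086), 24 h against 0 h in nsPEF cells for Hspa5 (0.091), and 24 h against 4 h for Hspa5 in sham (0.45) and nsPEF cells (0.027) and for Edem1 in nsPEF cells (0.34). Of these reversed differences, those of Herpud1 and Hspa5 in sham cells and of Edem1 in nsPEF cells were called (adjusted p from 0.000734 to 0.0375). Spike-in scaling called 4 members for nsPEF against sham at 4 h (15.9% of all probes, against 3.31% with the 75th percentile), 2 for the average over time (14.4% against 8.84%), 10 for sham 24 h against 4 h (27141 of all probes against 21743) and 2 for the interaction (4.39% against 0.377%). Array quality weights called 1 member at 24 h (Dnajb9, lower; 18.7% of all probes against 4.82%), 1 for the average over time (5613 of all probes against 3330), 8 for sham 24 h against 4 h (64.4%) and 1 for the interaction (7.68%). The mean of all probes of a gene called 2 at 4 h (Sdf2l1 and Herpud1), 1 at 24 h (Dnajb9) and 1 for the average over time. The 75th percentile over probes detected on all arrays called 9 for sham 24 h against 4 h (59.1% of all probes), where it moves the median of all probes by 0.18. With only the arrays of the slide, 0 members were called at 4 h (0.934% of all probes). Why these counts differ was not tested.

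With 1 array or 1 replicate number left out, the members called ranged from 0 to 1 for nsPEF against sham at 4 h and at 24 h and for the interaction, 4 to 8 for sham 4 h against 0 h, 5 to 9 for sham 24 h against 0 h, 5 to 7 for sham 24 h against 4 h, 6 to 7 for nsPEF 4 h against 0 h, 6 to 9 for nsPEF 24 h against 0 h and 5 to 6 for nsPEF 24 h against 4 h. With the replicate number as a block, 1 member was called at 4 h, 8 for sham 4 h against 0 h and 6 for sham 24 h against 4 h, where Hspa5 was added (-0.20, adjusted p = 0.0135). It changed no other call of the brightest probes.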

Other observations

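On each array the median deviation of the 10 genes from their group means lay between -0.09 and 0.07. Most genes lay on one side on a few arrays: 9 of 10 genes were above the group mean on S0 replicate 2 and on E24 replicate 2, and 1 of 10 was above it on S24 replicate 1.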
